A study of Schizosaccharomyces pombe with 8 samples.

Results

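The genes described here are the nuclear protein-coding genes of the fission yeast Schizosaccharomyces pombe, followed through a short, strong peroxide stress in the strain labelled ∆wee1. Members were the genes with an identifier of the SPAC, SPAP, SPBC, SPBP, SPCC or SPCP series, annotated as protein-coding in RefSeq, with a mean level of at least 1 FPKM over the 4 groups of the study. FPKM are fragments scaled by transcript length and library size, so that levels can be compared between genes. There were 4949 such genes of 7092 in the files, and 157 coding genes lay below the level. The gene just inside that level was mpf1 (mean 1.0 FPKM, with 1.59 FPKM under H2O2 against 1.32 FPKM untreated) and the gene just outside was SPAC683.03 (mean 0.997 FPKM, with 0.758 FPKM under H2O2 against 2.44 FPKM untreated).

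The groups were the strain labelled ∆wee1 after 15 min in 20 mM H2O2, the same strain untreated, wild type after the same H2O2 exposure, and wild type untreated. Each group had 2 libraries, which the series' design text calls biological replicates. The mutant carries wee1::ura4+ with leu-32 (spelled so in its label) and ura4-D18, the wild type carries leu1-32 and ura4-D18, and all cells were h- and grown to mid-log phase in rich medium, so both strains share the ura4-D18 background and a leucine marker. The sources used here do not say whether the mutant is a single clone. Each gene has 1 pooled value for each group in the files, which leaves the spread between libraries and the depth behind a value unknown.

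Wee1 is a protein kinase that delays mitosis by phosphorylating Cdc2, the kinase that drives the cell cycle, and cells without it divide at a small size. Peroxide is sensed in fission yeast along 2 main routes. One runs from the peroxiredoxin Tpx1 to the transcription factor Pap1, which induces antioxidant and drug-efflux genes, and the other runs through the MAP kinase Sty1 to the transcription factor Atf1, which serves many kinds of stress and takes the larger part at high doses.

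Changes are given as the log2 ratio of pooled FPKM + 1, H2O2 over untreated, with ± a standard error derived from the test statistics in the authors' deposited table. Only genes with a q-value below 0.05 in the authors' deposited table are said to have risen or fallen. In that table, 264 of the 4934 tested members rose and 239 fell, which is 5.35% and 4.84% of those tested, or 10.2% together. The authors' deposited table has 913 members at an unadjusted p under 0.05. The median ratio of all members was -0.03, and the quartiles were -0.22 and 0.15. Among called genes the rises had a median of 0.81 and the falls of -0.60, and at least 2-fold changes numbered 95 rises and 33 falls. After rescaling to equal sums over coding genes, the median of all members was -0.17 and these counts were 66 rises and 52 falls. Called rises together held 7.46% of the members' summed FPKM under H2O2, against 4.49% untreated, while called falls held 0.826% under H2O2, against 1.54% untreated.

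**Figure D1:**
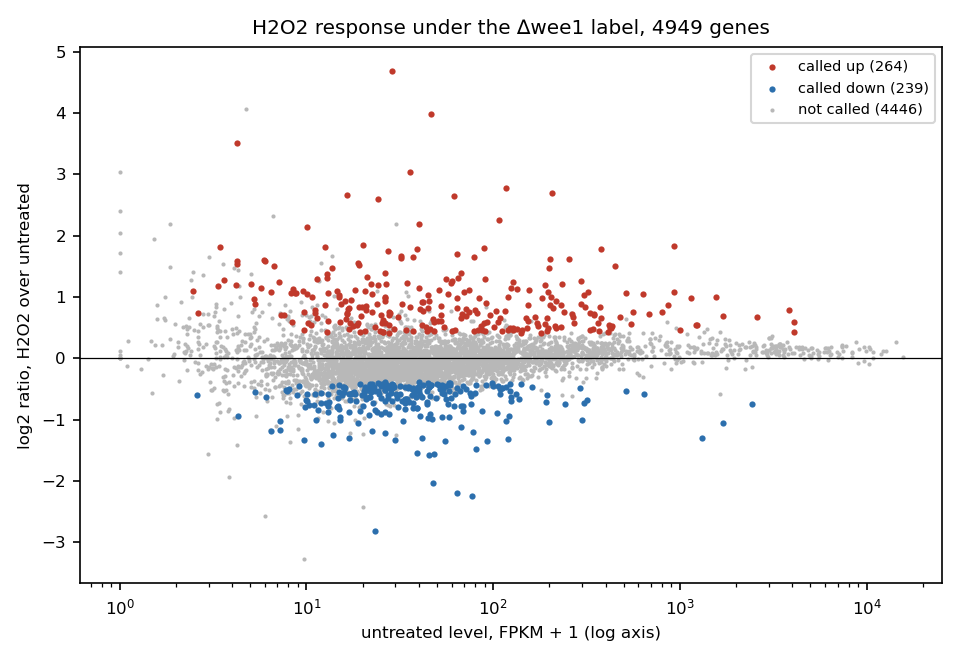
Log2 ratio of H2O2 over untreated under the ∆wee1 label (vertical axis) against the untreated level in FPKM + 1 (horizontal log axis), 1 point per gene. Red points rose, blue points fell and grey points were not called. The rises reach 4.68 and the falls -2.81, and most grey points lie close to 0.

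Before the response itself, the genes altered in this strain were looked at. Transcripts of wee1 itself (SPCC18B5.03, on chromosome III between 721804 and 725835 in RefSeq's ASM294v3) stood at 15.5 FPKM under H2O2 and 16.1 FPKM untreated in the strain labelled ∆wee1, against 8.17 and 8.91 FPKM in wild type under the same conditions. The level was thus higher under the deletion label, which goes against that label, and the strain is called labelled ∆wee1 throughout. The ura4 marker (SPCC330.05c) stood at 235 and 185 FPKM in the strain labelled ∆wee1 and at 0.0704 and 0.131 FPKM in wild type, in the same order of conditions. These ura4 levels go with the ura4+ marker in the label. Between strains the authors' deposited table calls wee1 in both conditions (q-value 0.000819) but not ura4 (q-value 0.546 under H2O2, 0.285 untreated). The gene leu1 stood at 670 and 592 FPKM, against 1044 and 788 FPKM in wild type. Where in wee1 the reads lie cannot be told from 1 value per gene. None of wee1 (-0.05 ± 0.21), ura4 (0.34 ± 0.21) and leu1 (0.18 ± 0.23) was called between H2O2 and untreated cells of the strain labelled ∆wee1. Ribosomal RNA genes held 3.19% of all FPKM under H2O2 and 10.9% untreated in the strain labelled ∆wee1, while nuclear coding genes held 93.5% and 86.8%. That share moves with the treatment, and its part in the ratios was not tested.

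The largest rise was that of SPACUNK4.17, annotated as a dehydrogenase of the NAD-binding family (chromosome I, 2872778 to 2874579). It had 735 FPKM under H2O2 and 27.7 FPKM untreated under the ∆wee1 label (4.68 ± 0.30), and 293 FPKM under H2O2 against 8.37 FPKM untreated in wild type. Next came srx1, the sulfiredoxin gene whose product repairs over-oxidised peroxiredoxin (SPBC106.02c, on chromosome II between 376253 and 377012), with 736 FPKM under H2O2 and 45.3 FPKM untreated (3.99 ± 0.57). In both strains the H2O2 pools stood far above the untreated pools for these genes, and levels under the ∆wee1 label were the higher ones in each condition. The phosphoketolase family gene SPBC24C6.09c had 47.7 FPKM under H2O2 against 3.24 FPKM untreated (3.52 ± 0.55). Wild type had only 3.40 FPKM under H2O2 and 0.205 FPKM untreated for that gene, and the authors' deposited table does not call it there (q-value 0.707). The glyoxylase III gene hsp3101, of the DJ-1 family that detoxifies reactive carbonyls, had 294 FPKM under H2O2 against 34.9 FPKM untreated (3.04 ± 0.28).

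The other large rises lay between 1.75 and 2.78. The gene prl65 had 804 FPKM under H2O2 and 116 FPKM untreated (2.78 ± 0.26), ddr48 had 1332 FPKM under H2O2 against 205 FPKM untreated (2.70 ± 0.28), and lsd90 had 386 FPKM under H2O2 against 61.0 FPKM untreated (2.64 ± 0.22). The succinate-semialdehyde dehydrogenase gene ssd2 had 103 FPKM under H2O2 against 15.4 FPKM untreated (2.67 ± 0.36). SPAC513.02, of the phosphoglycerate mutase family, had 146 FPKM under H2O2 against 23.1 FPKM untreated (2.60 ± 0.24). The catalase gene ctt1, whose product breaks down H2O2 itself (SPCC757.07c, chromosome III, 56654 to 58833), had 515 FPKM under H2O2 against 107 FPKM untreated (2.26 ± 0.22). The most abundant of the large rises was rtc3, which encodes an SBDS family protein, at 3313 FPKM under H2O2 against 932 FPKM untreated (1.83 ± 0.24). The remaining large rises were those of pyp2, ish1, smp4, tms1, wss2, SPAC32A11.02c, SPAC22A12.17c, SPAC3G6.07 and SPBPB21E7.10, with ratios between 1.75 and 2.19. Of these 20 genes, 17 were also called up in wild type in the authors' deposited table, and 7 carry no symbol. Of the 20, 13 share a locus with an overlapping gene, as do 65.4% of all members but only 44.7% of all 264 called rises. Reads from overlapping genes may be split between them.

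The largest fall was that of the glucose transporter gene ght1 (SPCC548.07c, chromosome III, 232288 to 235195), which stood at 2.32 FPKM under H2O2 and 22.3 FPKM untreated (-2.81 ± 0.39). The glycerol dehydrogenase gene gld1 had 15.3 FPKM under H2O2 against 76.5 FPKM untreated (-2.25 ± 0.40), and zwf2, annotated as a glucose-6-phosphate dehydrogenase, had 13.0 FPKM under H2O2 against 63.3 FPKM untreated (-2.20 ± 0.26). The phosphate transporter gene pho842 had 14.3 FPKM under H2O2 against 44.5 FPKM untreated (-1.57 ± 0.22). In the strain labelled ∆wee1, ght5, which encodes the main high-affinity glucose transporter, had 534 FPKM under H2O2 and 1316 FPKM untreated (-1.30 ± 0.25). It was by far the most abundant gene of this group, as the plot of pooled levels shows. Other falls among the 20 were those of the transporter genes ght4 (-1.56 ± 0.32), amt1 for ammonium (-1.40 ± 0.26), ptr2 for peptides (-1.34 ± 0.61) and put4 for proline (-1.26 ± 0.38). With them fell ste11, the transcription factor of mating (-1.34 ± 0.24), erg31, a sterol desaturase (-1.32 ± 0.21), urg2, a uracil-regulated gene (-1.35 ± 0.25), frp1, an iron reductase (-1.23 ± 0.25), and inv1, the secreted invertase (-1.20 ± 0.22). The remaining falls were those of SPCC737.04, SPBC2A9.14, mug14, mug108, SPBC19C7.04c and isp7, with ratios between -2.04 and -1.30. Of these 20 falls, 18 were called down in wild type as well in the authors' deposited table. Of the same 20, 12 share a locus with an overlapping gene, against 65.4% of all members and 40.6% of all 239 called falls.

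**Figure D2:**
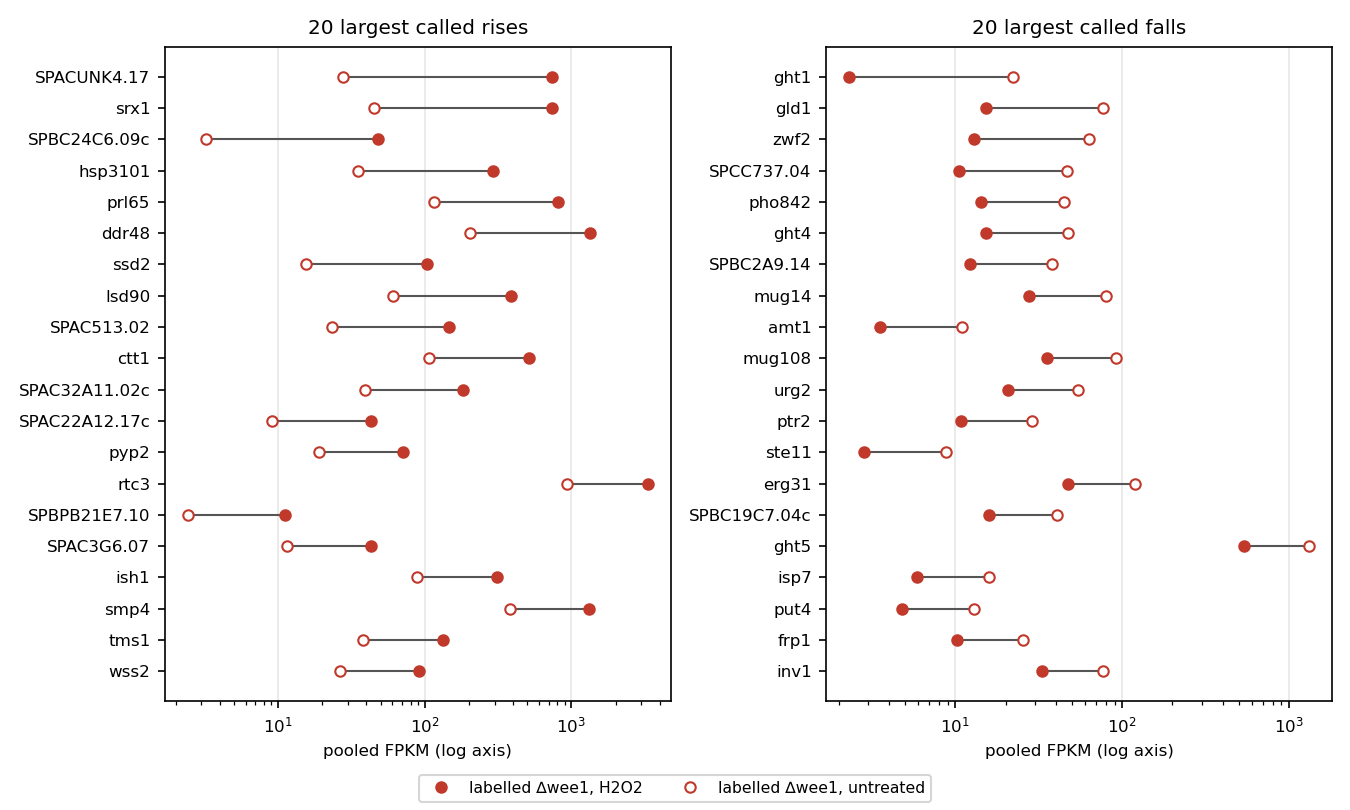
Pooled FPKM on a log axis for the 20 largest rises (left) and the 20 largest falls (right) under the ∆wee1 label, with filled points for H2O2 and open points for untreated cells. Among the rises rtc3 reaches 3313 FPKM, and among the falls ght5 drops to 534 FPKM under H2O2, against 1316 FPKM untreated.

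The sequences before the start of 5 of the large rises are shown because they hold, or lack, the short motifs known to bind Atf1 and Pap1. Each is the 250 bases before the annotated transcript start, read 5′ to 3′ on the gene's strand from RefSeq's ASM294v3 assembly, in windows that no other annotated gene overlaps. These 5 are examples, and their motifs do not give the share among the large rises. SPACUNK4.17, which holds neither motif, and SPBPB21E7.10, with the Pap1 motif 214 bases before its start, also have such windows and are not shown. Capitals mark TGACGT, the core of the Atf1 site, or TTACTAA, the Pap1 site, or the reverse complement of either.
ctt1, chrIII:58834-59083, minus strand: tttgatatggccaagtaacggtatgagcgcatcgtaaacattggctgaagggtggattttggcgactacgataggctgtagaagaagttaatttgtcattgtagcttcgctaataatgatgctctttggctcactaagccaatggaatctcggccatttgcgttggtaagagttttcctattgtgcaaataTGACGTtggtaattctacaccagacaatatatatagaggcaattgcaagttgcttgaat
smp4, chrIII:954980-955229, plus strand: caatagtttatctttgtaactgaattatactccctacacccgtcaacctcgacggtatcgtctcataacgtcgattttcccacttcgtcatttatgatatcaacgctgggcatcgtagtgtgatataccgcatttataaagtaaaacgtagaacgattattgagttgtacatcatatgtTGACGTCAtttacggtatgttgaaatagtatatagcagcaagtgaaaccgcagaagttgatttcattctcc
SPAC3G6.07, chrI:5391975-5392224, plus strand: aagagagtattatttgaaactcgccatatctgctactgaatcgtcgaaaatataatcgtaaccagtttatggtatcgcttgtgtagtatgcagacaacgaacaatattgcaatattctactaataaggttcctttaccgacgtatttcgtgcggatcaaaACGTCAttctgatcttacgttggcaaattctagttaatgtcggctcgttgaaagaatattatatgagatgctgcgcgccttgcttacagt
tms1, chrII:291959-292208, minus strand: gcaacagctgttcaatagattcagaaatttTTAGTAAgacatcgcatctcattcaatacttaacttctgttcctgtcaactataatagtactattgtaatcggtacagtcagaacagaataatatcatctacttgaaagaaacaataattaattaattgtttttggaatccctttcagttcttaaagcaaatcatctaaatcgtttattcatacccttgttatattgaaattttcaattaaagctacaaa
lsd90, chrII:1950256-1950505, minus strand: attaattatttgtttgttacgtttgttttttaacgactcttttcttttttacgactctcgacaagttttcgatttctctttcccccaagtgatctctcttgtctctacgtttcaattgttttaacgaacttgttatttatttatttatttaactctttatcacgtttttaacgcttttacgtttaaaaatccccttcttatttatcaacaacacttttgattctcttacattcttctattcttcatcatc

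The ctt1 sequence holds a single TGACGT, which begins 59 bases before the start. In smp4, whose function the annotation does not give, 2 overlapping copies on opposite strands form a palindrome 71 bases before the start. SPAC3G6.07 holds the reverse complement 90 bases before the start. The hexitol dehydrogenase gene tms1 holds no TGACGT but a reversed TTACTAA 220 bases before its start, and lsd90 holds neither motif in this stretch. All 5 genes rose, with ratios of 2.26 for ctt1, 1.79 for smp4, 1.82 for SPAC3G6.07, 1.78 for tms1 and 2.64 for lsd90.

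Over all members, 10 motifs were counted on both strands in windows of 300 bases, 250 before and 50 after each gene's annotated start. TGACGT occurred in 19.7% of the windows of genes that rose, 25.3% of those that rose at least 2-fold and 5.44% of those that fell, against 5.88% of all 4949. Read the other way, 52 of the 291 genes with TGACGT rose (17.9%), against 4.55% of the genes without it. Of the 20 largest rises 6 held it, namely ctt1, SPAC32A11.02c, SPAC22A12.17c, SPAC3G6.07, ish1 and smp4. The Pap1 motif TTACTAA occurred in 16.3% of the rises, 8.37% of the falls and 12.1% of all windows. The heat shock elements GAANNTTC (12.1% of rises, 11.1% of all) and TTCNNGAA (11.4% of rises, 10.1% of all) stood close to their share in all windows. The HomolD box CAGTCACA, known from ribosomal protein genes, occurred in 2.27% of rises, 0.837% of falls and 2.77% of all windows.

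Other motifs had their higher shares among the genes that fell. The forkhead motif GTAAACA, found before genes of mitosis, occurred in 24.7% of falls and 13.6% of rises, against 16.4% of all windows. The MBF motif ACGCGT occurred in 4.60% of falls, 2.65% of rises and 3.23% of all. The Prz1 motif AGCCTC, linked to calcium signalling, occurred in 10% of falls and 4.69% of all. CCCCTC, bound by the glucose-response factor Rst2, occurred in 5.44% of falls and 2.14% of all, and TTCTTTGTT, bound by Ste11, in 4.60% of falls and 1.94% of all. The motifs are short and a match in a window does not show that a factor binds there. Overlapping windows of divergent genes share their bases, so the windows are not independent.

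**Figure D3:**
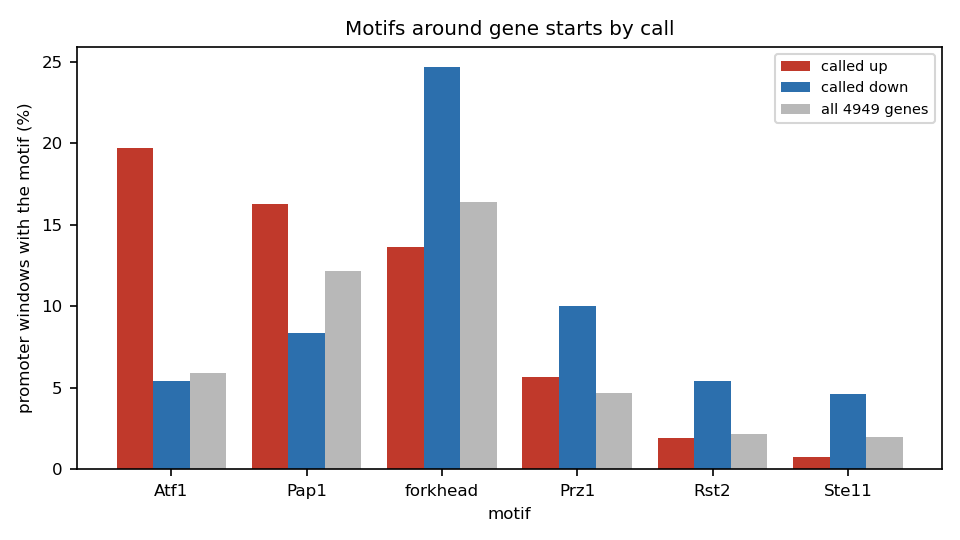
Percent of 300-base windows around gene starts that hold each motif, for genes that rose (red), genes that fell (blue) and all 4949 genes (grey). The Atf1 motif stands at 19.7% of the rises, against 5.88% of all genes, and the forkhead motif at 24.7% of the falls, against 16.4% of all genes.

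Peroxide-removing genes were among those that rose. Of the 15, 7 were called up in the authors' deposited table, where 5.35% of all members were, and their median ratio was 0.62. Besides srx1 and ctt1 these were gpx1, a glutathione peroxidase (1974 FPKM under H2O2, 927 FPKM untreated, 1.09 ± 0.24), tpx1, the main peroxiredoxin and peroxide sensor (3111 FPKM under H2O2 and 1550 FPKM untreated, 1.0 ± 0.25), and pmp20, a peroxiredoxin relative (2258 FPKM under H2O2 and 1147 FPKM untreated, 0.98 ± 0.23). The thioredoxin reductase gene trr1 (416 FPKM under H2O2 and 229 FPKM untreated, 0.86 ± 0.29) and the thioredoxin gene trx1 (6624 FPKM under H2O2 and 3850 FPKM untreated, 0.78 ± 0.24) completed the set. The superoxide dismutase gene sod1 (0.41 ± 0.22) was not called. Genes of glutathione metabolism had 4 of 18 called up in the authors' deposited table and a median of 0.19. Those 4 were the glutaredoxin gene grx1 (0.69 ± 0.22), the transferase genes gst2 (0.65 ± 0.23) and gst3 (0.61 ± 0.29), and the glyoxalase gene glo1 (0.49 ± 0.21).

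Genes known to depend on Sty1 and Atf1 had the highest median among the 47 lists, 0.75, with 14 of 23 up and 3 down in the authors' deposited table. The rises included lsd90 and ctt1, the Sty1 phosphatase gene pyp2 (71.3 FPKM under H2O2, 19.1 FPKM untreated, 1.85 ± 0.30) and ish1, which encodes a nuclear envelope protein (311 FPKM under H2O2 and 88.6 FPKM untreated, 1.80 ± 0.36). The falls were cmk1, a calmodulin-dependent kinase (-0.78 ± 0.22), fbp1, the fructose-bisphosphatase of gluconeogenesis, and cip2, an RNA-binding protein. The TGACGT motif stood in the windows of 7 of the 23, and all 7 rose (rds1, gpd1, atf1, ish1, ntp1, srk1 and ctt1). The list and the motif both come from what is known of Atf1, so they are not independent.

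Genes known to depend on Pap1 had a median of 0.62. Against 4.84% and 5.35% of all members, 1 of these 16 fell and 9 rose in the authors' deposited table. Besides srx1, ctt1, tpx1, trr1 and trx1, which also stand in the peroxide list, they were caf5, a membrane transporter (31.0 FPKM under H2O2, 11.9 FPKM untreated, 1.31 ± 0.25), zwf1, the glucose-6-phosphate dehydrogenase that supplies NADPH (540 FPKM under H2O2 and 293 FPKM untreated, 0.88 ± 0.24), gst2 and the efflux pump gene bfr1 (0.59 ± 0.20). The other efflux pump gene pmd1 fell (18.1 FPKM under H2O2 and 25.8 FPKM untreated, -0.48). TTACTAA stood in the windows of srx1, caf5, bfr1 and gst2, and these 4 all rose, against 9 of all 16. The list and the motif both come from what is known of Pap1, so they are not independent. Over all members, 7.15% of the genes with TTACTAA rose, against 5.08% of the genes without it.

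The transcripts of the signalling proteins were examined next. The MAP kinase gene sty1 had 171 FPKM under H2O2 and 132 FPKM untreated (0.37 ± 0.31), and pap1 had 102 FPKM under H2O2 and 105 FPKM untreated (-0.05 ± 0.21), and neither was called. The gene atf1 rose (71.8 FPKM under H2O2 and 47.4 FPKM untreated, 0.59 ± 0.20), as did pcr1, which encodes its partner (124 FPKM under H2O2 and 70.2 FPKM untreated, 0.81 ± 0.21). In the Sty1 cascade the authors' deposited table called 4 of 20 genes up and 2 down, against 5.35% and 4.84% of all members. The list median was 0.04 and turns to -0.10 after rescaling. The rises were pyp2, srk1, a kinase activated by Sty1 (0.98 ± 0.23), mpr1, a phosphotransfer protein of the peroxide-sensing relay (0.94 ± 0.37), and gpd3, a glyceraldehyde 3-phosphate dehydrogenase (0.56 ± 0.23), which stands in the list although the dehydrogenase known to act in that relay is Tdh1. Besides cmk1, the histidine kinase gene mak3 fell (9.0 FPKM under H2O2 and 12.7 FPKM untreated, -0.46).

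Chaperone genes rose in part. The authors' deposited table called 11 of 31 up, against 5.35% of all members, and the list median was 0.37. The rises were led by hsp3101, hsp3103 (98.2 FPKM under H2O2, 31.0 FPKM untreated, 1.63 ± 0.22) and hsp3104 (1.24 ± 0.24). These genes stand in the list although they are annotated as glyoxylase III. Next came psi1, a partner of Hsp70 with a DnaJ domain (683 FPKM under H2O2 and 321 FPKM untreated, 1.09 ± 0.23). Among the more abundant ones that rose were the Hsp70 gene ssa1 (1575 FPKM under H2O2 and 859.7 FPKM untreated, 0.87), the disaggregase gene hsp104 (567 FPKM under H2O2 and 345 FPKM untreated, 0.72) and the small heat shock gene hsp16 (4117 FPKM under H2O2 and 2578 FPKM untreated, 0.68). The Hsp90 gene hsp90 (2263 FPKM under H2O2 and 2062 FPKM untreated, 0.13) and hsp9 (8851 FPKM under H2O2 and 7716 FPKM untreated, 0.20) were not called. In trehalose and glycerol metabolism 5 of 11 genes were called up in the authors' deposited table. They were tms1, the trehalase gene ntp1 (1.0 ± 0.30), the trehalose synthase gene tps1 (0.70), and the glycerol 3-phosphate dehydrogenase genes gut2 (0.77 ± 0.23) and gpd1 (1360.1 FPKM under H2O2 and 806 FPKM untreated, 0.75 ± 0.25), while gld1 fell.

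**Figure D4:**
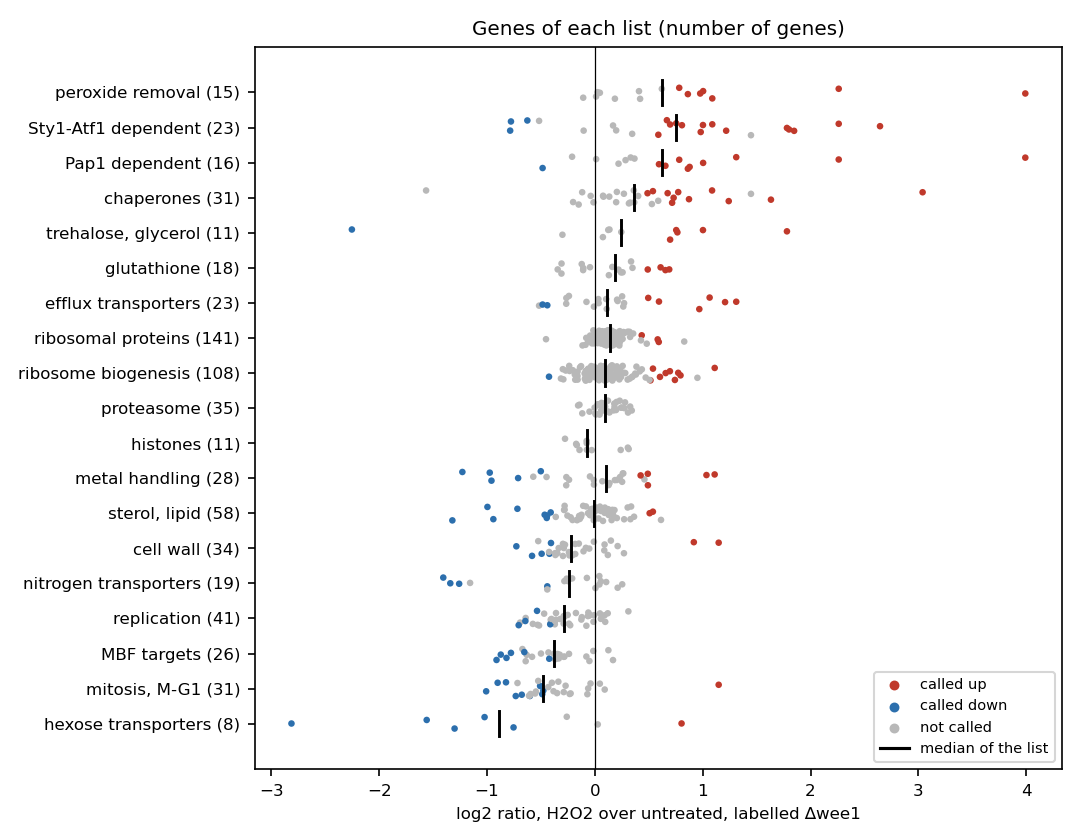
Log2 ratio of H2O2 over untreated under the ∆wee1 label (horizontal axis) for the genes of 19 lists, with the number of genes in brackets. Red points rose, blue points fell, grey points were not called and black bars are list medians, which run between 0.75 for the Sty1-Atf1 list and -0.89 for the hexose transporters.

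Hexose transporter genes had the lowest median of the 47 lists, -0.89, with 5 of 8 down and 1 up in the authors' deposited table, where 4.84% of all members were down. The falls were ght1, ght4 (15.3 FPKM under H2O2, 47.1 FPKM untreated), ght5, ght3, annotated as a gluconate transporter (15.2 FPKM under H2O2 and 31.9 FPKM untreated, -1.02 ± 0.24), and ght8 (144 FPKM under H2O2 and 243 FPKM untreated, -0.75). The rise was ght2 (69.7 FPKM under H2O2 and 39.5 FPKM untreated, 0.80 ± 0.21), and ght6 (-0.26) and ght7 (0.03) were not called. Among nitrogen transporters and related genes 4 of 19 were down (2 when adjusted over this pair alone), and among uracil and purine genes 3 of 31 were down, all of the urg family, in the authors' deposited table. Metal genes split, with 5 of 28 up and 5 down in the authors' deposited table. The rises included zym1, a metallothionein (628 FPKM under H2O2 and 306 FPKM untreated, 1.04 ± 0.21), and isu1, a scaffold for iron-sulphur clusters (337 FPKM under H2O2 and 155 FPKM untreated, 1.11 ± 0.28). The falls included frp1, fip1 and fio1, which together take up iron (fip1 21.7 FPKM under H2O2 and 43.6 FPKM untreated, -0.97 ± 0.23, and fio1 6.84 FPKM under H2O2 and 14.2 FPKM untreated, -0.96 ± 0.25). With them fell fep1, the iron-sensing repressor (-0.71 ± 0.24).

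Cell cycle genes made up a further part of the falls. Transcripts of mitosis and of the boundary to G1 had 9 of 31 down and 1 up in the authors' deposited table, against 4.84% and 5.35% of all members. The list median was -0.48, and 28 of 31 ratios were negative. The falls included adg1 (148 FPKM under H2O2, 299 FPKM untreated, -1.01 ± 0.22) and agn1, a glucanase of cell separation (54.8 FPKM under H2O2 and 103 FPKM untreated, -0.90 ± 0.24), klp6, a kinesin (-0.82 ± 0.24), slp1, an activator of the anaphase-promoting complex (-0.73 ± 0.38), and plo1, the polo kinase (-0.51). The forkhead motif stood in the windows of 20 of the 31 (64.5%), and 5 of those 20 fell, against 9 of all 31. The motif is known from genes of mitosis, so the list and the motif are not independent. The rise was psu1, annotated as a glucosidase of the cell wall (88.4 FPKM under H2O2 and 39.3 FPKM untreated, 1.15 ± 0.21). In RNA from whole cultures, fewer cells at a cell cycle stage and less RNA per cell cannot be told apart.

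Targets of MBF, the factor that switches on genes for DNA synthesis at the start of S phase, had a median of -0.37. Against 4.84% of all members, 6 of the 26 targets were down in the authors' deposited table. They were cdc18 (13.7 FPKM under H2O2, 26.6 FPKM untreated, -0.91 ± 0.25) and cdt1 (21.2 FPKM under H2O2 and 38.2 FPKM untreated, -0.82 ± 0.24), which load the replicative helicase, mrc1, a mediator of the replication checkpoint (12.1 FPKM under H2O2 and 23.0 FPKM untreated, -0.87 ± 0.24), tos4 (-0.78 ± 0.27), the cohesin gene rad21 (-0.42) and mik1, a kinase that acts on Cdc2 like Wee1 (8.36 FPKM under H2O2 and 13.7 FPKM untreated, -0.65 ± 0.25). In the replication list 4 of 41 were down in the authors' deposited table, among them the helicase genes mcm6 (-0.71 ± 0.22) and mcm7 (-0.64 ± 0.21). Among 25 regulators of Cdc2, 2 were up and 6 down in the authors' deposited table, against 5.35% and 4.84% of all members. The rises were pyp3, a phosphatase that activates Cdc2 (77.2 FPKM under H2O2 and 40.4 FPKM untreated, 0.92 ± 0.22), and cdr1, a kinase that inhibits Wee1 (24.8 FPKM under H2O2 and 16.2 FPKM untreated, 0.58 ± 0.22). The genes cdc2 (58.1 FPKM under H2O2 and 62.0 FPKM untreated, -0.09 ± 0.26), cdc25, the phosphatase that opposes Wee1 (10.2 FPKM under H2O2 and 12.3 FPKM untreated, -0.25 ± 0.23), and cdc13, the mitotic cyclin (78.9 FPKM under H2O2 and 97.9 FPKM untreated, -0.31 ± 0.22), were not called.

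Of 58 genes of sterol, fatty acid and phospholipid metabolism, 8 were down and 2 up in the authors' deposited table. Of all members, 4.84% were down and 5.35% up. The sterol and lipid list had 27 positive and 31 negative ratios and a median of -0.01. The falls included erg1, squalene monooxygenase (62.2 FPKM under H2O2, 120.2 FPKM untreated, -0.94 ± 0.21), erg11, the 14-demethylase (116 FPKM under H2O2 and 191 FPKM untreated, -0.72 ± 0.21), erg31 and hmg1, the reductase that commits carbon to sterols (-0.46). The cell wall list had 5 of 34 down and 2 up in the authors' deposited table (3 down when adjusted over this pair alone), with falls of gas1, a glucan-remodelling enzyme (185 FPKM under H2O2 and 307 FPKM untreated, -0.73 ± 0.22), and ags1, an alpha-glucan synthase (-0.58 ± 0.20).

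Genes of protein synthesis come last. The list of ribosomal protein genes has 141 members and also holds rpp1, annotated as a putative RNase P and RNase MRP subunit. In it 3 were called up in the authors' deposited table, below the 5.35% of all members. In the list 129 ratios were positive with a median of 0.14, which turns to -0.02 under quantile normalization. Ribosome biogenesis factors had 9 of 108 up and 1 down in the authors' deposited table, with a median of 0.09 that turns to -0.04 after rescaling. The largest rises there were those of the helicase gene dbp2 (160 FPKM under H2O2, 73.6 FPKM untreated, 1.11 ± 0.21) and bms1, a GTPase of small-subunit assembly (0.79 ± 0.21). None of the 35 proteasome, 8 chaperonin, 11 histone or 81 splicing genes was called with Cuffdiff in the authors' deposited table, where 2 proteasome genes and 2 splicing genes with a positive ratio and 1 splicing gene with a negative one had an unadjusted p under 0.05. The splicing list also holds spf1, annotated as a Set1C subunit.

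The called genes were also described by length and exon number. The median annotated transcript was 1491 bases long for rises and 2480 bases for falls, against 1703 bases for all members. A single exon was annotated in 73.5% of rises and 72.4% of falls, against 51.1% of all members. The members were ordered by length and split into 5 bins of nearly equal size. The share called down was 0.707% in the bin of shortest and 9.90% in the bin of longest transcripts, with median ratios of 0.09 and -0.16. The share called up differed less, at 5.66% in the bin of shortest and 3.74% in the bin of longest, and was highest in the second bin (7.47%). Wild type had medians of 0.20 and -0.18 in the same bins. Across genes, Spearman's rho of the ratio with length was -0.30 under the ∆wee1 label and -0.33 in wild type (n = 4949 genes, which share their libraries). The lists differ in length as well: the median transcript had 1087 bases in the peroxide list, 1928 bases in the Sty1-Atf1 list and 2593 bases in the mitosis list. The part of length in the list medians was not tested.

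Wild type was set beside these values to see where the strain labelled ∆wee1 differed. There, 6.45% of 4928 tested members were up and 9.15% down in the authors' deposited table. Of the genes tested in both strains, 178 were called up in both, which is 68.5% of the rises under the ∆wee1 label and 56% of those in wild type. Falls called in both numbered 193, which is 80.8% of the falls under the ∆wee1 label and 42.9% of those in wild type. The 2 responses share no library. The list medians under the ∆wee1 label were 0.62 for peroxide removal, 0.75 for the Sty1-Atf1 list, -0.48 for mitosis and -0.89 for the hexose transporters, against 0.50, 0.58, -0.63 and -1.29 in wild type. Ribosome biogenesis genes had a median of 0.09 with 9 of 108 up under the ∆wee1 label, against 0.33 with 31 up in wild type. Nuclear-encoded respiratory chain genes had 2 of 55 up under the ∆wee1 label and 10 up in wild type. These differences between lists were not tested. Of the 81 genes up under the ∆wee1 label and not called in wild type, 73 had a positive ratio in wild type, and of 46 such falls 44 had a negative one. Across members the ratios of the 2 strains had Pearson's r of 0.76 (n = 4949 genes, a description). Ribosomal RNA held 22.2% of FPKM in wild type under H2O2 and 3.13% in untreated wild type, opposite to the shares under the ∆wee1 label, and the part of this in the comparison was not tested.

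**Figure D5:**
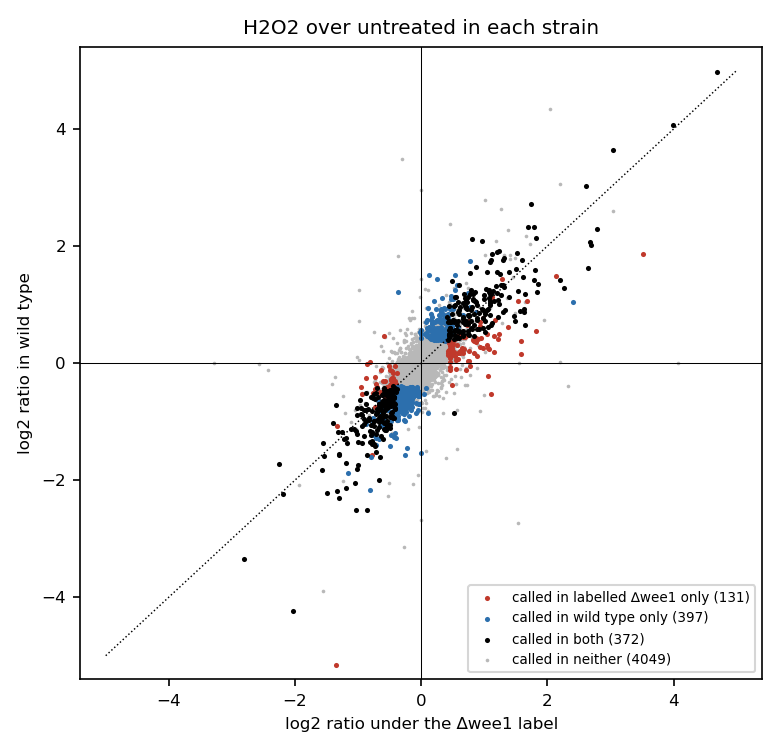
Log2 ratio of H2O2 over untreated under the ∆wee1 label (horizontal axis) and in wild type (vertical axis), 1 point per gene, with the dotted line marking equal ratios. Of the genes plotted, 131 were called under the ∆wee1 label alone, 397 in wild type alone, 372 in both and 4049 in neither.

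The difference of the 2 responses was tested for each gene with a normal z test and Benjamini-Hochberg adjustment. It passed in 3 of 4921 members, or 0.061%, and 60 had an unadjusted p under 0.05. The errors are wide, with a robust SD of z of 0.469, so missing the threshold does not show that a gene responds alike in both strains. The gene that passed with opposite calls was SPAC2H10.01, annotated as a transcription factor (chromosome I, 5273022 to 5275983). It had 61.6 FPKM under H2O2 and 42.9 FPKM untreated in the strain labelled ∆wee1, so it rose (0.51 ± 0.21), against 37.4 FPKM under H2O2 and 68.8 FPKM untreated in wild type, where it fell (-0.86 ± 0.21). Its H2O2 level was therefore above the untreated one in the first strain and below it in the second, a difference of 1.37 ± 0.29 (adjusted p = 0.000982, over all genes). The methyltransferase gene cmt2 fell in both strains, with 95.5 FPKM under H2O2 and 197 FPKM untreated under the ∆wee1 label, and 9.69 FPKM under H2O2 and 59.7 FPKM untreated in wild type, a difference of 1.47 ± 0.36 (adjusted p = 0.0142). The gene that passed with the largest difference, rnh203, encodes a subunit of ribonuclease H2 and was called in neither strain by the authors' deposited table. It had 11.0 FPKM under H2O2 and 13.9 FPKM untreated in the strain labelled ∆wee1 (-0.31 ± 0.73), against 10.6 FPKM under H2O2 and 0.0354 FPKM untreated in wild type (3.48 ± 0.67), a difference of -3.79 ± 1.0 (adjusted p = 0.044). The level of untreated wild type stands apart from the other 3 there, and the gene shares its locus with an overlapping gene. For a pool near 0 the test depends on the pseudocount: with 0.1 FPKM the difference of rnh203 had an unadjusted p of 0.055, and it passed neither with 0.1 nor with 5 FPKM nor after rescaling. SPAC2H10.01 passed under each of these settings, and cmt2 under each but a pseudocount of 5 FPKM (adjusted p = 0.0631).

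Other named genes had differences that missed the adjusted threshold. For ctt1 the rise was 2.26 ± 0.22 under the ∆wee1 label and 1.29 in wild type, where it had 435 FPKM under H2O2 and 178 FPKM untreated, a difference of 0.98 ± 0.31. For lsd90 the difference was 1.02 ± 0.31 (59.3 FPKM under H2O2 and 18.5 FPKM untreated in wild type). The fall of ght5 was smaller under the ∆wee1 label, by 1.0 ± 0.34, with 135 FPKM under H2O2 and 669.7 FPKM untreated in wild type. The rise of bsu1, a vitamin B6 importer, was smaller under the ∆wee1 label (9.30 FPKM under H2O2 and 4.26 FPKM untreated) than in wild type (19.6 FPKM under H2O2 and 3.86 FPKM untreated), with a difference of -1.12 ± 0.38. None of these 4 differences passed the z test after Benjamini-Hochberg adjustment over all genes, although that of lsd90 did with a pseudocount of 5 FPKM (adjusted p = 0.0258). For mug108, which shares its locus, the difference was 3.80 ± 1.05 (z test, adjusted p = 0.0770). In wild type it had 0.961 FPKM under H2O2 and 68.8 FPKM untreated, and was not called there. The difference of mug108 passed with 5 FPKM (adjusted p = 0.00175) and on rescaling (adjusted p = 0.0323), and not with 0.1 FPKM. For srx1 (-0.08 ± 0.92), tpx1 (0.13 ± 0.35), gpx1 (0.09 ± 0.33) and trr1 (0.51 ± 0.40) the differences were smaller than 2 standard errors.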

How the data were processed

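RNA of fission yeast cultures was sequenced after poly(A)-selected, strand-marking library preparation, per the labels' protocols. Reads were trimmed with cutadapt, aligned with HISAT2 and summarised with Cuffdiff, per the submitters' processing notes. Of versions, genome build, annotation and strand setting, the sources used here say nothing. The deposited FPKM values are 1 pooled value per gene and group, so no library spread or depth can be computed from them. The authors' deposited table compares the groups in 6 pairs and lists log2 fold changes, a score (the Cuffdiff test statistic), a p-value and a q-value adjusted over all pairs together. The lowest p-value listed there is 5e-05 and the lowest q-value is 0.000819. A limma fit over libraries was planned, but pooled values do not allow it, so the authors' calls (q-value under 0.05) are used.

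The log2 ratios were computed here from FPKM + 1, which understates the change of low genes. Standard errors were taken from the authors' deposited table as log2 fold change divided by test statistic, solved for a variance per group and scaled to the pseudocount of 1 FPKM. The difference between strains was a two-sided normal z test with Benjamini-Hochberg adjustment over 6168 genes. Genes were matched by identifier to RefSeq's ASM294v3, which gave coordinates, transcript lengths and sequences. Python 3.11.15, pandas 2.3.3, numpy 2.4.6 and scipy 1.17.1 were used. The variance solve and the z test were run on values simulated from the derived errors themselves. That run checks the computation and cannot show whether those errors suit the real values.

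A further motif is not reported here. The members and lists were chosen with earlier results of these data known. Genes were named by rule: wee1, ura4 and leu1; the 20 largest called rises and falls with at least 5 FPKM in the higher group; per list, up to 5 members with the largest absolute ratio at that level; the largest differences between strains past the threshold; and, whatever their values, cdc2, cdc13, cdc25, mik1, sty1, atf1, pap1, gpx1, trr1, tpx1, srx1 and ctt1. Named outside the rule, after their values were seen, were rds1, ssa1, trx1, hsp104, tps1, hsp16, hsp9, hsp90, sod1, ght6, ght7, ght8, rad21, mak3, hmg1, pmd1, plo1, cip2, fbp1 and mpf1, and in the closing section any gene not already in the report.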

Additional observations from a re-analysis of the deposited data

Results flagged for a closer look

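In 3 genes the response to H2O2 differed between the strain labelled ∆wee1 and wild type by the z test of the difference itself, after Benjamini-Hochberg adjustment. For SPAC2H10.01 the difference, ∆wee1 label minus wild type, was 1.37, with opposite calls in the authors' deposited table. For cmt2 it was 1.47, with a fall in both strains. For rnh203 it was -3.79, with 0.0354 FPKM in untreated wild type and between 10.6 and 13.9 FPKM in the other groups, and it did not pass under the other pseudocounts or after rescaling.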

How the results depend on the processing

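Of the 264 rises and 239 falls, 95 and 33 were also at least 2-fold. Among the 1714 genes alone in their locus, a choice made after seeing the data, 146 rose and 142 fell, which is 8.52% and 8.28% of them, against 3.65% and 3.0% of genes sharing a locus. Adjusting over this pair alone kept 450 of the 503 calls. Among the 248 genes of the naming rule, SPBPB21E7.10, mug9, slp1 and ptr2 lost theirs, and called falls became fewer by over 1.5 times in 4 lists (cell wall 3, nitrogen transport 2, membrane efflux 1 and ribosome biogenesis 0). The other filters on level left counts within 1.5 times. Rescaling to equal sums over coding genes moved the median of all members to -0.17, with -0.03 as deposited, and gave 66 rises and 52 falls of at least 2-fold. With a pseudocount of 5 FPKM there were 69 such rises and 18 falls. On rescaling 13 of 47 list medians turned sign, under quantile normalization 10 and at a mean of at least 5 FPKM 1. Those of at least 0.1 in size as deposited were membrane efflux (-0.023) and ubiquitin genes (-0.015) on rescaling and ribosomal proteins (-0.023) under quantile normalization, and the cause was not tested. The ratio of 0 of the 503 called genes changed sign under any scaling or pseudocount. The difference between strains passed in 2 genes with a pseudocount of 0.1 FPKM and in 4 with 5 FPKM or on rescaling, and only SPAC2H10.01 passed in all 4 settings run. Leaving out a replicate was not run, since each group has 1 pooled value. No paired analysis was possible because the files hold 1 pooled value per group. Depth is unknown, so how far it limits low genes cannot be given.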

Other observations

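Genes were also grouped by words of their annotated product, after their values were seen, and these counts are a description, to be read beside the 5.35% of all members called up and 4.84% called down. Of 219 genes named as dehydrogenases, reductases, oxidases or the like, 40 rose (18.3%) and 12 fell (5.48%) in the authors' deposited table. Of 219 transporter genes, 22 rose (10%) and 29 fell (13.2%), and of 67 genes of GPI anchors, the Golgi or vesicles, 1 rose (1.49%) and 9 fell (13.4%). Among 598 genes without a described function, 45 rose (7.53%), above the 5.35% of all members, and 26 fell (4.35%), close to their 4.84%.

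Small word groups with several rises in the authors' deposited table included those naming trehalose (4 of 6), aldo-keto reductases (4 of 6) and glyoxylases (3 of 6). Another was that of the eisosome (3 of 3), which shapes furrows of the plasma membrane. Other word groups stood nearer to all members, with 6.59% of 91 protein kinase, 4.41% of 68 ubiquitin ligase and 3.45% of 58 helicase genes called up there. Genes whose product text lacks the word are not in a group. The 3 genes whose annotated product names the eisosome were pil2 (20.0 FPKM under H2O2, 9.10 FPKM untreated, 1.05 ± 0.31), fhn1 (165 FPKM under H2O2, 83.5 FPKM untreated, 0.98 ± 0.29) and eis1 (135 FPKM under H2O2, 81.1 FPKM untreated, 0.73 ± 0.22). Of 6 trehalose genes 4 rose, led by the synthase gene SPAC22F8.05 (144 FPKM under H2O2, 59.4 FPKM untreated, 1.26 ± 0.21). The 2 genes of the Con-6 family rose too, SPAC11D3.01c with 359.5 FPKM under H2O2 and 182 FPKM untreated (0.98 ± 0.24) and SPAC869.09 with 54.3 FPKM under H2O2 and 18.2 FPKM untreated.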
